A study of Mus musculus with 26 samples.

Results

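Cytosolic ribosomal proteins are the protein components of the ribosomes that translate nuclear-encoded mRNA. The genes described here are the entries of the deposited RNA-seq table whose symbol starts with Rpl or Rps and a number, or is Rplp0 to Rplp2 or Rpsa, without pseudogene symbols (-ps) and without the Rps6k kinases. This rule found 59 genes among 15646 genes with an expression value. Of these, 53 carry the symbol of a core ribosomal protein, 21 of the small subunit (Rps genes and Rpsa) and 32 of the large subunit (Rpl and Rplp genes). Core ribosomal proteins number about 80 by name, so many core symbols, Rplp0 among them, were not found. Sums, shares, medians and contact counts below cover only the genes found. The other 6 are Rpl7l1, Rpl22l1, Rpl36al, Rpl39l, Rps27l and Rps4y2, whose symbols name relatives of core genes. Of the baited promoter fragments in the interaction lists, 58 name such a gene, among 18797 baits in all, and Rps23 is the 1 gene named by none.

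Pluripotent cells of 3 states were compared by RNA-seq and by Promoter Capture Hi-C (PCHi-C), which ligates DNA fragments that lie close together in the nucleus and enriches the products that hold a gene promoter. Wild-type (WT) mouse embryonic stem cells (ESCs) were of the line E14Tg2a (129P2/OlaHsd), and Nanog-/- ESCs were of RCNβH-B(t), a line derived from it that lacks the pluripotency factor NANOG. Both grew in serum with LIF on gelatin, Nanog-/- ESCs at passages 20-30 and with hygromycin while they were expanded. Embryo-derived EpiSCs (129S2) model the later, primed epiblast and grew on fibronectin in N2B27 with Activin A and bFGF. The sample labels give the strain C57BL/6, which differs from the strains in the culture description, and each genotype is 1 line. Medium, substrate and strain differed together with the state between EpiSCs and ESCs, and their parts cannot be told apart.

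RNA-seq was labelled as 3 WT ESC, 3 Nanog-/- ESC and 4 EpiSC samples, and PCHi-C as 5, 5 and 2 lanes. The authors deposited 1 median RPKM (reads scaled to gene length and library size) for each state and 1 combined interaction list for each state. No value therefore has a replicate error, no difference was tested, and a fold describes these medians only. In the table, Nanog was at 417.7 RPKM in WT ESCs, 22.3 RPKM in Nanog-/- ESCs and 360.6 RPKM in EpiSCs. The naive marker Esrrb was at 210.4, 147.4 and 0.775 RPKM in WT ESCs, Nanog-/- ESCs and EpiSCs, whereas the primed marker Fgf5 was at 4.74, 1.11 and 219.3 RPKM. After the scaling of EpiSC values described below, all 6 measured naive markers were lower in EpiSCs than in WT ESCs by over 1.5-fold. Of 7 primed markers 4 were higher by as much, and Otx2 (log2 0.07), Zic5 (log2 -0.04) and Dnmt3b (log2 -0.55) were not. All 5 primitive endoderm markers were higher in Nanog-/- than in WT ESCs, and 3 of 4 fibroblast markers were higher by over 1.5-fold in EpiSCs than in WT ESCs, with Col3a1 at 102.0 against 2.66 RPKM. The part of such other cells in the ribosomal protein values was not tested.

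Ribosomal protein mRNAs are among the most abundant of growing cells. They are made in near-balanced amounts although their genes are scattered over the chromosomes, since each protein is needed once, or a few times in the stalk, per ribosome. Their mRNAs typically begin with a C followed by a run of pyrimidines, the 5′ terminal oligopyrimidine (TOP) motif, through which mTOR signalling and the RNA-binding protein LARP1 control translation. Mammalian genomes also hold many processed pseudogenes of ribosomal protein genes, copies of their mRNAs in genomic DNA, so that short reads from these mRNAs often match more than 1 place.

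The start sites are shown first because the TOP motif is what these genes are best known to share. RefSeq start windows (GRCm38.p6) were found for 43 of the 59 genes, 51 windows in all, each from 250 bases before the listed start to 50 bases from it. The lines below give 40 bases before the listed start and the first 20 bases from it, with a pyrimidine run in capitals. The first 4 genes are core genes picked because their run begins at the listed start, and the last 3 are relatives of core genes. The choice does not show how common such runs are in either kind.
Rpl35 (chr2:39005112-39005171, minus strand): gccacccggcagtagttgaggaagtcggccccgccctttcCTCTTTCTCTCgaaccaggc
Rps6 (chr4:86857348-86857407, minus strand): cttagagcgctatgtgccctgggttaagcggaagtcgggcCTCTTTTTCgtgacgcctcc
Rpl38 (chr11:114668540-114668599, plus strand): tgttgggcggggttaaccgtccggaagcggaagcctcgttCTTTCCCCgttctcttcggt
Rps27 (chr3:90213629-90213688, minus strand): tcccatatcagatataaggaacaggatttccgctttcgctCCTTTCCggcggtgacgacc
Rps27l (chr9:66946046-66946105, plus strand): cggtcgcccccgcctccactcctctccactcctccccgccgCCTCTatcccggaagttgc
Rpl7l1 (chr17:46782637-46782696, minus strand): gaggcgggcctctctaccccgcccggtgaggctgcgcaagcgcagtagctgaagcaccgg
Rpl39l (chr16:10170188-10170247, plus strand): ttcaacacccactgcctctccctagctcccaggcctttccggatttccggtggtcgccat

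In Rpl35 the run is 11 bases long, in Rps6 it is 9, in Rpl38 it is 8 and in Rps27 it is 7. In the Rps27l window shown it begins 1 base after the listed start and has 5 bases, and the other of its 2 windows holds no such run. The windows of Rpl7l1 and Rpl39l hold no such run. Of relatives not shown, Rpl22l1 has a run of 8 bases that begins 3 bases after the listed start, and Rpl36al has none. A run that begins with C, has at least 5 pyrimidines and starts within 3 bases of the listed start was present in 18 of 51 ribosomal protein windows (35.3%), against 12.5% of 817 windows of other genes at 100 RPKM or more in WT ESCs and 11.5% of all 32851 windows. Core genes alone had such a run in 16 of 45 windows (35.6%). The listed start is a single position of an annotation, and starts further away were not searched for. In 8 of the 18 the run begins at the listed start itself. 

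Further short motifs were searched on both strands of the whole windows. The ETS-like letters CCGGAAG were in 39.2% of ribosomal protein windows, in 19.1% of windows of the other highly expressed genes and in 8.86% of all windows. The BANP-like letters TCTCGCG were in 21.6%, 7.83% and 2.56%, respectively. The SP-like letters GGGCGG were in 58.8%, 68.5% and 35.7%. The YY1-like letters AGATGGCG were in 2 windows, those of Rps27 and Rpl7l1 (3.92%, against 5.14% and 1.95%). The TATA box letters TATAAA were in 7.84%, 8.45% and 13.6%, and the E-box letters CACGTG in 7.84%, 12.9% and 7.15%. The windows had a median GC content of 59%, against 61.7% for the other highly expressed genes and 52.7% for all windows. These matches are letters in a window and not measured binding.

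In WT ESCs the 59 genes had a median of 744.9 RPKM, and 58 of them were at 100 RPKM or more, as were 9.41% of all 10407 genes with a mean of at least 1 RPKM over the 3 states. Their values added up to 12.9% of the sum of RPKM over the whole table, and 25 genes were above 1000 RPKM. Among the highest were Rplp1, a protein of the ribosomal stalk, at 5099 RPKM, Rpl32 at 4516 RPKM, Rps26 at 3512 RPKM and Rps15 at 2799 RPKM. The lowest were Rpl39l, a relative of Rpl39 best known from the testis, at 98.5 RPKM, Rpl29 at 153.1 RPKM, Rps15a at 163.5 RPKM, Rps19 at 193.7 RPKM and Rpl7l1 at 196.8 RPKM. The highest and lowest thus differed by 51.7-fold per length of gene. Core genes of the small subunit had a median of 1622 RPKM and those of the large subunit of 689.9 RPKM.

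**Figure D1:**
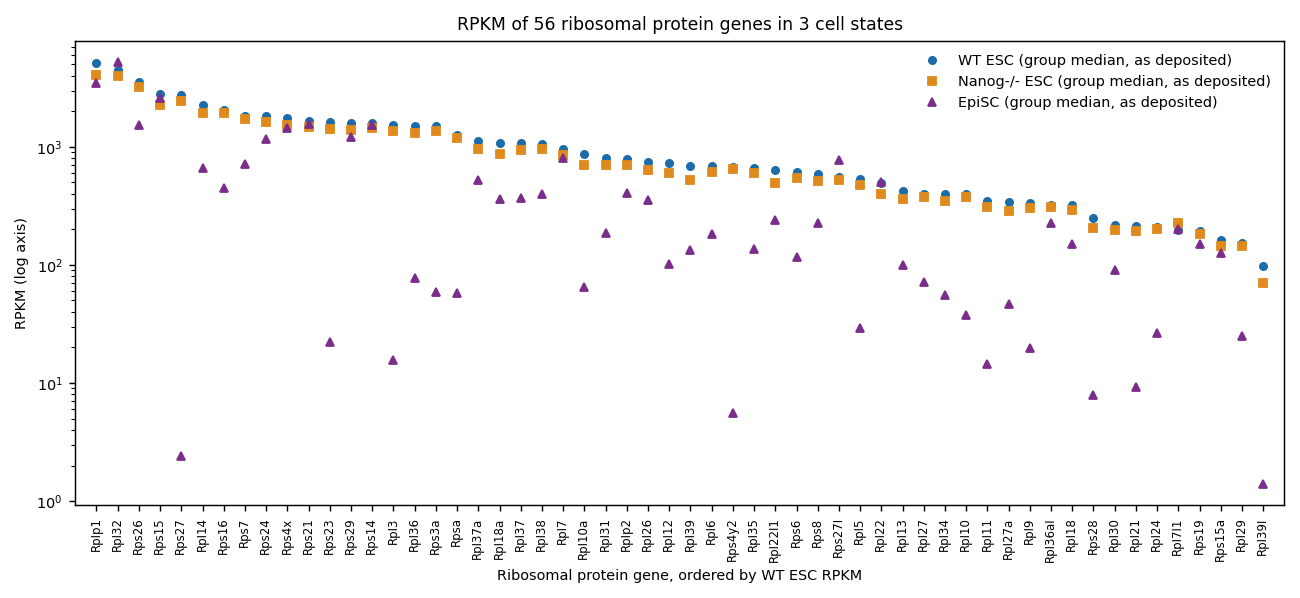
Deposited group median RPKM (log axis) of 56 of the 59 ribosomal protein genes in WT ESCs, Nanog-/- ESCs and EpiSCs, ordered by the WT ESC value, with EpiSC values before scaling. Nanog-/- values lie under the WT ESC values for all genes shown but Rpl7l1, whereas EpiSC values range from 5249 RPKM (Rpl32) to 1.41 RPKM (Rpl39l).

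Ribosomal protein mRNA was slightly and evenly lower in ESCs without NANOG. In Nanog-/- ESCs 58 of 59 genes were lower than in WT ESCs on the log2(RPKM + 1) scale, as were 41.7% of all 10407 genes. The median log2 difference was -0.17, equal to 1.12-fold, and over all genes tested it was 0.07. Of the 59, none was past 1.5-fold in either direction, the threshold used throughout, whereas 6.09% of all genes were lower and 8.47% higher by that much. The reduction was narrow as well as small: the SD over the 59 genes was 0.10, against 0.47 over all genes and 0.39 over 921 other genes at 100 RPKM or more in WT ESCs, whose median was 0.03. Of the 59, 10 were lower by over 1.2-fold. When the Nanog-/- values were divided by 1.05, the median Nanog-/- to WT ESC ratio of 9496 genes, 1 of the 59 was higher, as without scaling, and the median log2 difference was -0.24. In bulk samples fewer cells of a type and less RNA per cell cannot be told apart.

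The order of the genes was close to that in WT ESCs, with a rank correlation of RPKM of 0.996 over the 59 genes, which share 1 pair of medians. The 10 highest genes in WT ESCs were also the 10 highest in Nanog-/- ESCs. The values of all 59 genes added up to 11.2% of the table's sum in Nanog-/- ESCs. Small-subunit core genes ranged from -0.30 to -0.07 and large-subunit core genes from -0.39 to -0.07, with medians of -0.15 and -0.17. Rpl39 had the largest difference among core genes, from 691.0 to 527.1 RPKM (log2 -0.39). Rplp1 went from 5099 to 4055 RPKM (log2 -0.33).

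The widest differences in both directions belonged to relatives of core genes. Rpl39l was at 98.5 RPKM in WT ESCs and 70.8 RPKM in Nanog-/- ESCs (log2 -0.47), the lowest ratio of the 59. Rpl22l1, a relative of Rpl22, was at 636.7 and 492.8 RPKM (log2 -0.37). Rpl7l1, a relative of Rpl7, was the 1 gene with a higher value, at 196.8 against 225.8 RPKM (log2 0.20). Rps27l, Rpl36al and Rps4y2 differed by -0.07, -0.06 and -0.06.

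Other genes of ribosome production did not share this direction. Of 18 measured genes for ribosome biogenesis, such as Nob1 and Tsr1 for small-subunit maturation and Polr1b for RNA polymerase I, 16 were higher in Nanog-/- ESCs, with a median log2 difference of 0.23 and none past 1.5-fold. Of 52 mitochondrial ribosomal protein genes, 36 were higher, with a median of 0.16. Of 12 translation factors and other genes with TOP mRNAs, 7 were lower and 5 higher, with a median of -0.08. Of these, Eef2, the elongation factor that moves the ribosome along the mRNA, went from 3401 to 2599 RPKM (log2 -0.39). Among 9 regulators, Myc was at 24.2 RPKM in WT ESCs and 72.2 RPKM in Nanog-/- ESCs (log2 1.54) and was the 1 regulator past 1.5-fold, while Mycn was at 163.6 and 119.7 RPKM (log2 -0.45).

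**Figure D2:**
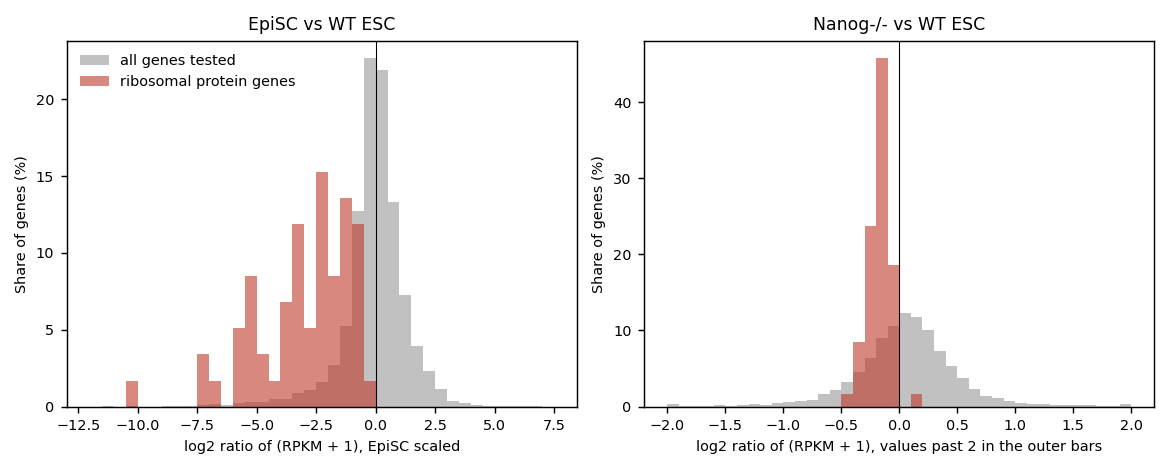
Share of genes (%) by log2 ratio of RPKM + 1, for all 10407 genes tested (grey) and the 59 ribosomal protein genes (red), in EpiSCs (left, scaled) and Nanog-/- ESCs (right) against WT ESCs. The red bars form a narrow peak around -0.17 on the right and spread from -10.23 to -0.41 on the left.

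EpiSC values were divided by 1.89, the median EpiSC to WT ESC ratio of 9077 genes, before they were compared. All 59 ribosomal protein genes were then lower in EpiSCs than in WT ESCs, as were 49.3% of all genes. Of them, 58 were lower by over 1.5-fold, against 23.5% of all genes, and none was higher by as much, against 25.8%. The median log2 difference was -2.49, equal to 5.63-fold, and 26 genes were lower by over 8-fold, against 3.17% of all genes. The 921 other genes at 100 RPKM or more in WT ESCs had a median of -0.55, and 47.9% of them were lower by over 1.5-fold.

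The difference was far from even among the 59 genes, with an SD of 2.02 and a range from -10.23 to -0.41. Just inside the threshold was Rpl32 at -0.70, and the 1 gene outside it was Rps27l at -0.41. The scaling decides the sign for a few genes. Without it, 6 genes, among them Rpl32, Rps27l, Rpl22 and Rpl7l1, were higher in EpiSCs than in WT ESCs, and the median of all 59 was -1.58. With the factor from genes at 100 RPKM or more (1.26), the 1 higher gene was Rps27l. In deposited units, the 59 genes made up 4.82% of the table's sum in EpiSCs, and the rank correlation of their RPKM with WT ESCs was 0.615. Of the 10 highest genes in WT ESCs, 5 were among the 10 highest in EpiSCs.

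The 10 genes furthest below WT ESCs include proteins of both subunits. Rps27, a zinc-finger protein of the small subunit, was at 2725 RPKM in WT ESCs, 2442 RPKM in Nanog-/- ESCs and 2.40 RPKM in EpiSCs (log2 -10.23). Rps4y2 was at 678.2, 649.7 and 5.54 RPKM (log2 -7.43). Rpl3, which helps to form the peptidyl transferase centre, was at 1521, 1354 and 15.7 RPKM (log2 -7.35). Each of these is lower in EpiSCs by over 100-fold, whereas their Nanog-/- values were lower by 1.04- to 1.12-fold.

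Rps23, which lies at the decoding centre, was at 1622, 1417 and 22 RPKM in the same order of states (log2 -7.00). Rpl39l was at 98.5, 70.8 and 1.41 RPKM (log2 -5.83), Rps28 at 249.2, 206.0 and 7.86 RPKM (log2 -5.60), and Rps3a at 1498, 1367 and 58.8 RPKM (log2 -5.54). Rpl11, which together with Rpl5 and 5S rRNA binds Mdm2 when ribosome assembly is disturbed, was at 344.6, 310.0 and 14.4 RPKM (log2 -5.33). Its partner Rpl5, which is not among the 10, was at 531.7, 471.8 and 29.1 RPKM (log2 -5.02). Rpsa, also known as the laminin receptor, was at 1250, 1192 and 58.3 RPKM (log2 -5.29), and Rpl21 at 212.4, 194.5 and 9.27 RPKM (log2 -5.17).

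At the other end, in the same order, Rps27l was at 550.1, 525.3 and 780.8 RPKM (log2 -0.41) and Rpl32 at 4516, 3998 and 5249 RPKM (log2 -0.70). Their deposited EpiSC values exceed those of both ESC lines, and they fall below only after scaling. Core genes of the small subunit had a median log2 difference of -1.76 and those of the large subunit of -3.10.

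Relatives and their core genes differed from each other in EpiSCs. Rps27l was lower by 1.33-fold and Rps27 by 1200-fold on the RPKM + 1 scale. With 0.1 added in place of 1, the folds were 1986 for Rps27 and 116.7 for Rpl39l, whose log2 difference was -5.83 with 1 added. They were the 2 genes of the 59 whose fold against WT ESCs moved by over 1.5 times. In the Rpl22 pair the relative was lower by more, with Rpl22 at 496.8 and 507.7 RPKM and Rpl22l1 at 636.7 and 242.0 RPKM in WT ESCs and EpiSCs (log2 -0.88 and -2.30). Rpl39l (log2 -5.83) was also further below than Rpl39 (log2 -3.26). Rpl7l1 (log2 -0.88) and Rpl7 (log2 -1.15) lay close together. Rps4x was at 1744 and 1432 RPKM (log2 -1.20) and Rps4y2, whose bait and RefSeq synonym place it at the annotated pseudogene Rps4l on chromosome 6, at 678.2 and 5.54 RPKM. Rpl36al was at 321.2 and 224.3 RPKM (log2 -1.43).

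Against Nanog-/- ESCs the picture was close to that against WT ESCs, and both comparisons share the EpiSC values. All 59 genes were lower in EpiSCs, as were 52.2% of all genes, and 56 were lower by over 1.5-fold, against 26.1% of all genes. None was higher by as much, against 23.6%. The 3 genes short of the threshold were Rps27l (log2 -0.34), Rpl32 (log2 -0.52) and Rpl22 (log2 -0.57). The median was -2.24.

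The share of a transcript that also occurs elsewhere in the genome moved with the EpiSC difference. For each gene, every stretch of 50 bases (50-mer) of its main transcript was searched for an exact copy outside the gene in GRCm38. The share depends on the transcript chosen, and that of Rps15a (7.1%) has 5179 bases, the longest of the 59. The median share with a copy was 50.8% for the 59 genes and 0% for 10227 other genes tested, and over 50% of the 50-mers had a copy in 31 of the 59 genes but in 2.92% of the others. The 4 ribosomal protein genes with under 10% had a median log2 EpiSC difference of -1.09, the 24 with 10 to 50% of -2.13, the 24 with 50 to 90% of -2.75 and the 7 with 90% or more of -4.87. Genes outside the group showed the same order, with medians of 0.08, -0.43, -1.57 and -3.24 over 9261, 667, 256 and 43 genes. These include ribosomal protein pseudogene symbols, which are described again below. They also include loci with Gm numbers for names, from Gm3699 (100%, log2 -7.71) to Gm10076 (69.25%, log2 -0.76). The part of such loci in these medians was not tested. The rank correlation over the 59 genes was -0.38 with the share of 50-mers and -0.54 with that of 100-mers.

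In Nanog-/- ESCs no such order appeared, with medians of -0.26, -0.16, -0.18 and -0.16 in the same bins and a rank correlation of -0.04. Reads were 50 or 100 bases long by the sample labels, which do not say which samples had which length, and the treatment of reads that match several places is not given in the sources used here. The part of repeated sequence in the EpiSC values was not tested.

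Single genes lie on both sides of this relation. Of the Rps27 50-mers 99.7% occur elsewhere, and of those of Rpl3 91.9%, and both are among the lowest. Rpl39l has none, yet its log2 difference was -5.83. Rps4y2 has 15.7% and was at -7.43, while Rps4x has 84.3% and was at -1.20.

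Genes that are no ribosomal proteins but have many copies were also far lower in EpiSCs. Gapdh, a glycolytic enzyme with many processed pseudogenes, was at 1016, 1033 and 118.9 RPKM in WT ESCs, Nanog-/- ESCs and EpiSCs (85.6% of 50-mers elsewhere), and the prolyl isomerase Ppia at 426.0, 393.1 and 12.4 RPKM (61.9%). Both were chosen after their values were seen. The 11 ribosomal protein pseudogene symbols with a mean of at least 1 RPKM were all lower by over 1.5-fold in EpiSCs, with a median log2 difference of -4.40. Of these, Rps26-ps1 was at 563.3, 512.1 and 5.93 RPKM and Rps27a-ps2 at 177.0, 171.1 and 0.0933 RPKM. In Nanog-/- ESCs their median was -0.12.

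**Figure D3:**
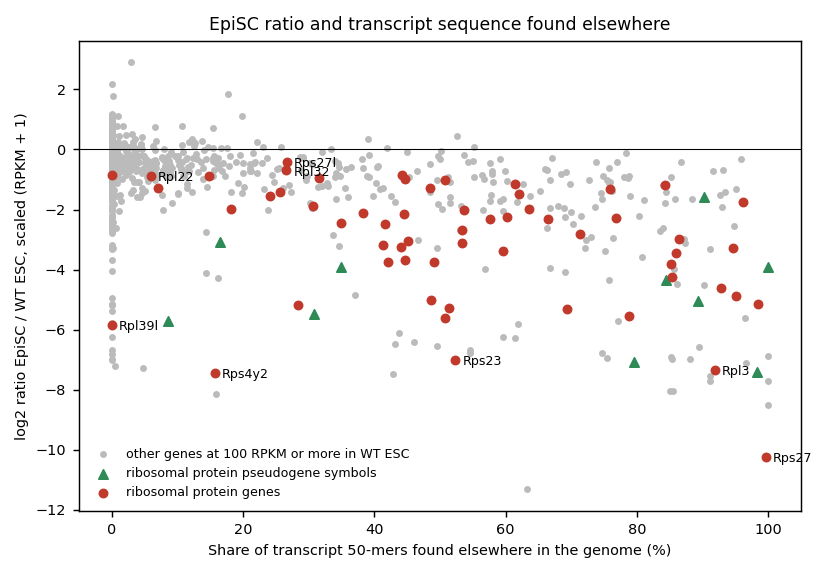
Scaled log2 EpiSC to WT ESC ratio of RPKM + 1 against the share (%) of 50-mers of the main transcript with an exact copy elsewhere in the genome, for ribosomal protein genes (red), ribosomal protein pseudogene symbols (green triangles) and other genes at 100 RPKM or more in WT ESCs (grey). Most grey points with a low share lie near 0, but some lie far lower, such as Esrrb at -7.23 (0.41%). Among red points, Rps4y2 and Rpl39l lie low at shares of 15.7% and 0%. Green triangles lie low at both low and high shares, with Rpl32-ps at -5.73 (8.53%) and Rps27a-ps2 at -7.41 (98.3%).

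Other genes of translation were lower in EpiSCs by less. Of 12 translation factors and other TOP genes, all 12 were below WT ESCs and 9 past 1.5-fold, with a median log2 difference of -0.74. Npm1, a nucleolar chaperone, was at 2459 and 1747 RPKM and Eef2 at 3401 and 4513 RPKM in WT ESCs and EpiSCs (log2 -1.41 and -0.51). Of 18 ribosome biogenesis genes, 17 were lower and 12 past 1.5-fold, with a median of -0.73. Of 52 mitochondrial ribosomal protein genes, 48 were lower and 19 past 1.5-fold, with a median of -0.45. Gnb2l1 (Rack1), a scaffold on the small subunit whose symbol the rule does not take, was at 1075 and 1158 RPKM (log2 -0.81, 0.93% of 50-mers elsewhere).

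The promoters of these genes were then examined in the PCHi-C lists. A contact is a pair of HindIII fragments listed at a CHiCAGO score of at least 5, a measure of how far its reads exceed the background at that distance, and each pair was counted once per list. The WT ESC list held 312 contacts of ribosomal protein baits, the EpiSC list 293 and the Nanog-/- list 246. At least 1 contact was listed for 52 of 58 baits in WT ESCs, against 90% of all baits, for 55 in EpiSCs, against 85.5%, and for 47 in Nanog-/- ESCs, against 75.3%. Since a bait enters the count of all baits by having a contact in some list, these shares depend on the sum of the lists.

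The mean was 5.40, 5.07 and 4.24 contacts per bait in WT ESCs, EpiSCs and Nanog-/- ESCs, against 6.57, 5.50 and 4.86 for all baits. The lists differ in size, with 100492, 87369 and 74931 pairs in all, and in the number of lanes behind them. From WT ESCs to EpiSCs, 25 ribosomal protein baits had more contacts, 24 fewer and 9 as many, while 33.6% of all baits had more and 52.8% fewer. From WT to Nanog-/- ESCs, 12 had more and 34 fewer, while 21.8% and 60.7% of all baits did. Over 58 genes, the rank correlation of the change in contacts with the EpiSC log2 difference was 0.08, and that of the number of contacts with RPKM in WT ESCs was -0.003.

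Contacts were unevenly spread over the baits. Rps19 had the most, with 13 in the WT ESC list, 15 in the EpiSC list and 16 in the Nanog-/- list, and its bait spans chr7:24881140-24887489. In the same order, Rpl29 followed with 8, 25 and 7, and thus had by far its highest number in EpiSCs. Rpl31 had 14, 14 and 11, and Rpl36 13, 11 and 15. Rpl26 had 12 in each list.

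Rpl18 had 11, 12 and 11 contacts and Rpl7l1 12, 12 and 10. The 8 baits with the most contacts held 31.3%, 38.1% and 37% of the contacts of all 58 baits in the 3 lists. At the low end, 15 baits had 3 or fewer contacts over the 3 lists together. Among them were the most highly expressed gene, Rplp1, with 1 contact in EpiSCs and none in the other lists, and Rpl39l with 2 in EpiSCs. Rps27, the gene furthest below in EpiSCs, had 9, 4 and 8 contacts.

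**Figure D4:**
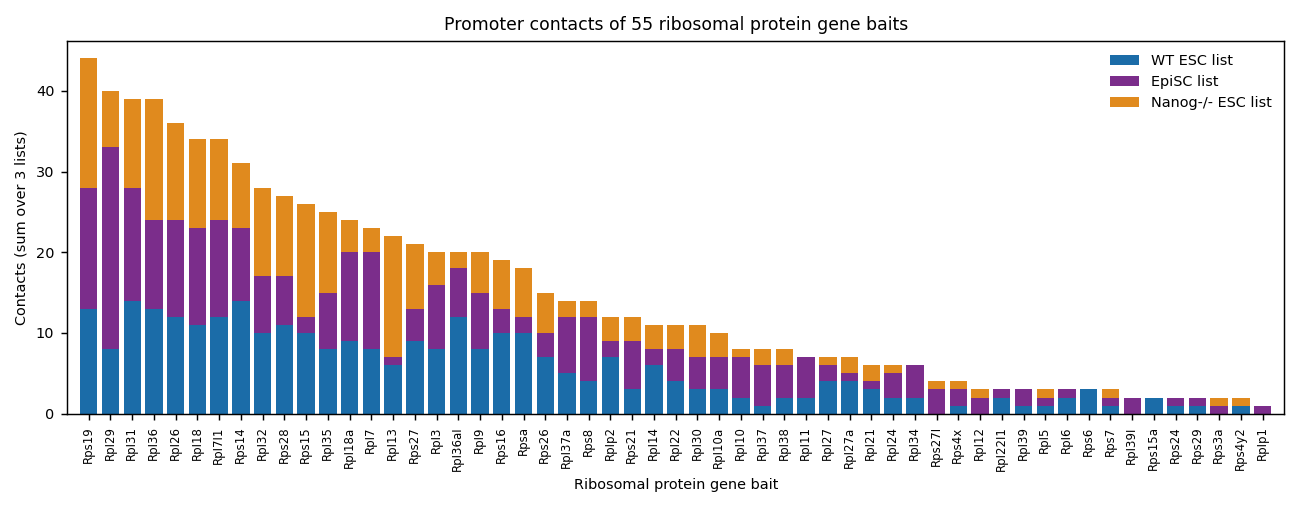
Number of contacts of 55 of the 58 ribosomal protein gene baits, summed over the 3 lists, with the list shown by colour. The sum runs from 44 for Rps19 to 1 for Rplp1, and the bar of Rpl29 is mostly EpiSC.

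In each list, contacts of ribosomal protein promoters had a shorter median distance than those of all baits. The median distance between fragment midpoints was 82.5 kb for WT ESCs, 88.7 kb for EpiSCs and 65.3 kb for Nanog-/- ESCs, against 138.7, 140.6 and 74.1 kb for all baits and 109.1, 105.6 and 63.2 kb for baits of the other genes at 100 RPKM or more. No contact exceeded 800 kb in WT ESCs or Nanog-/- ESCs, of 309 and 244 within a chromosome, and 2 of 292 did in EpiSCs (0.685%, Wilson 95% interval 0.188 to 2.46%). Over all baits the shares were 1.30%, 0.370% and 1.78% in WT ESCs, Nanog-/- ESCs and EpiSCs. For the other genes at 100 RPKM or more they were 0.854%, 0.122% and 1.11%, within the intervals of the ribosomal protein baits. With these numbers the upper limits of the ribosomal protein shares are 1.23% in WT ESCs and 1.55% in Nanog-/- ESCs, from counting error only.

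Both EpiSC contacts over 800 kb came from the bait of Rpl37 and reached 1090 and 1095 kb to neighbouring fragments. The stronger of them joined it to the promoter of Oxct1, an enzyme of ketone body use, with 6 reads and a score of 7.24. The other had 5 reads and a score of 5.60.

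The highest score in WT ESCs and in Nanog-/- ESCs belonged to a contact between chromosomes. It joined the bait of Rpl30 (chr15:34442239-34448220) to a fragment with no bait, chr7:54899097-54905049. It was listed in all 3 states, with 7 reads and a score of 47.6 in WT ESCs, 8 reads and 56.1 in Nanog-/- ESCs, and 5 reads and 26.4 in EpiSCs. In EpiSCs the highest score, 39.2 with 58 reads, belonged to a contact of Rps14 over 51.5 kb, which all 3 lists hold. Between chromosomes 3 different pairs were listed in all, the others from Rps16 and Rps6 with 4 reads or fewer.

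Ribosomal protein promoters often met other promoters. In WT ESCs 46.8% of their contacts (Wilson 95% interval 41.3 to 52.3%) joined a pair of baits, in EpiSCs 41% (35.5 to 46.7%) and in Nanog-/- ESCs 50% (43.8 to 56.2%). Over all baits the shares were 22.9%, 18.2% and 21.9%, and over baits of the other genes at 100 RPKM or more they were 40.4%, 34% and 40.03%. Mitochondrial ribosomal protein baits had 45.5%, 38.5% and 44.4%. The genes at the other end of such contacts had median WT ESC levels of 18.7 RPKM for the WT ESC list, 19.1 RPKM for the EpiSC list and 15.1 RPKM for the Nanog-/- list, against 3.81, 5.01 and 4.33 RPKM over the ends of all contacts that join baits, taking the highest gene a bait names.

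The named partners below are single examples, chosen after their values were seen, and do not show what is typical. Rpl36 met Lonp1, a mitochondrial protease gene at 170.6 RPKM in WT ESCs, at 10.2 kb (131 reads). Rpl29 met Rrp9, a ribosome biogenesis gene at 101.7 RPKM, at 44.1 kb (27 reads), and Rpl18 met Grwd1, a gene linked to ribosome biogenesis, at 116 kb (12 reads). Rps19 met Lypd4, at 0.0195 RPKM, at 13 kb (79 reads). All 4 contacts were in all 3 lists, as were 16.2% of the different contacts of ribosomal protein baits.

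A single contact joined the promoters of 2 of the 59 ribosomal protein genes. Rps29 (chr12:69152402-69160240) met Rpl36al (chr12:69181836-69185626) at a distance of 27.4 kb. In WT ESCs the pair had 23 reads and scored 8.65, in EpiSCs it had 12 reads and scored 8.38, and it was not listed in Nanog-/- ESCs. The 59 genes lie on 19 chromosomes.

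Contacts recurred between lists about as often as those of other promoters. Of the 312 contacts in WT ESCs, 42.3% (37 to 47.9%) were in the EpiSC list and 46.5% (41 to 52%) in the Nanog-/- list, against 39.6% and 41.8% for all baits. Of the 293 in EpiSCs, 45.1% were in the WT ESC list and 38.9% in the Nanog-/- list, against 45.5% and 36.4%. Of the 246 in Nanog-/- ESCs, 58.9% were in the WT ESC list and 46.3% in the EpiSC list, against 56.0% and 42.4%. All 3 lists held 89 contacts, 16.2% of 549 different ones, against 14.4% for all baits.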

How the data were processed

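RNA-seq libraries (TruSeq v2, HiSeq, single-end) and PCHi-C lanes were labelled by state. Per the labels, the submitters' processing notes name Bowtie 1.1.0, TopHat, Trim Galore and DESeq2 and the builds GRCm38 and mm10, without saying which step used which. The authors normalised expression to RPKM and deposited group medians, so the depth of the RNA-seq libraries is unknown. The Nanog-/- column carries a clone-like name rather than the genotype, and was assigned from the series design and the name of the line. By the study's methods, the authors mapped read pairs with HiCUP, combined the replicates and deposited, for each fragment pair, the count of reads and the CHiCAGO score. Over the called pairs these counts add up to 2177284 for WT ESCs, 1651286 for EpiSCs and 1438555 for Nanog-/- ESCs. Columns with the authors' log2 fold changes and significance values (EpiSC and Nanog-/- against WT ESC) were not used. The ChIP-seq samples were not analysed here.

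Ratios were taken on log2(RPKM + 1) for the 10407 genes with a mean of at least 1 RPKM, EpiSC divided by 1.89 and Nanog-/- unscaled. A gene was called past 1.5-fold, and all 59 ribosomal protein genes passed the filter. Main transcripts were those of GENCODE M21 (APPRIS principal, longest), found for 59 ribosomal protein genes and 15352 genes in all. Start windows were RefSeq's. Shares carry Wilson 95% intervals, which cover counting error only, since reads without molecular identifiers are not independent molecules. The search for copies of transcript stretches and the RPKM ratios were tested on simulated data with known answers, but the counting of contacts was not. Python 3.11.15 was used with numpy, pandas, scipy and matplotlib.

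Genes named are the 5 highest and 5 lowest in WT ESCs, at most the 10 furthest past 1.5-fold in each direction, all relatives of core genes, the 8 baits with most contacts, contacts that join 2 ribosomal protein promoters, and the contacts of highest score in each list. Pathway lists held translation factors, ribosome biogenesis, mitochondrial ribosomal proteins, regulators and cell type markers. Members, lists and comparisons were chosen with earlier results of these data known. Protein sequences of relatives were not compared here, and single values of a few genes that the naming rule takes are not reported here, though sums, counts and medians include them.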

Additional observations from a re-analysis of the deposited data

How the results depend on the processing

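No value has a replicate error, so leaving out a replicate could not be run. No paired analysis was possible because the deposited table gives 1 median per state and the lists are combined over replicates. Of 128 values recomputed under other settings, 104 moved by less than their limit and 24 moved by more. Limits were 1.5-fold for counts, means and distances, the Wilson interval for shares, and 0.1 for medians on the log2 scale. No median log2 difference changed sign, and the other kinds of value cannot change sign. Some settings could not move a value. All 59 genes pass each filter, and the EpiSC factor does not enter the Nanog-/- to WT ESC ratio. Every count of ribosomal protein genes past the threshold stayed within 1.5-fold of the main count under each RPKM alternative. Without scaling, 43 of the 59 were lower by over 1.5-fold in EpiSCs than in WT ESCs, with a median of -1.58, and 42 than in Nanog-/- ESCs, with a median of -1.33. With the factor from genes at 100 RPKM or more, the counts were 49 and 45 and the medians -1.91 and -1.67. Core genes had medians of -2.69 and -2.45.

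At a score of at least 7, contacts numbered 133 for WT ESCs, 124 for EpiSCs and 116 for Nanog-/- ESCs (means of 2.31, 2.15 and 2.00 per bait), with 54.9% of WT ESC contacts joining baits and a median of 32.7 kb in Nanog-/- ESCs. With at least 10 reads, 186 remained in EpiSCs (mean 3.22, median 50.4 kb, 0% over 800 kb) and 143 in Nanog-/- ESCs (mean 2.47, median 22.6 kb), and the WT ESC median was 43.0 kb. All 58 baits name no other gene, so leaving out shared baits changed nothing. When a partner within 10 kb counted as the same, 56.7% of WT ESC contacts were in the EpiSC list and 63.5% in the Nanog-/- list. The smaller numbers follow from the stricter limits, and the cause of the other moves was not tested.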
